A study of Rattus norvegicus with 4 samples.

Results

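Transcripts of 9 liver enzymes of the methionine cycle and of one-carbon metabolism were examined in the livers of 4 untreated rats. The members were taken by name: Mat1a, Gnmt, Ahcy, Bhmt, Cbs, Cth, Pemt, Gamt and Shmt1. Each of the 9 had 1 probe set annotated with its symbol alone, so 9 of 15923 probe sets, and 9 of 10412 named genes, are described. No older synonym added a probe set. The animals were male Sprague-Dawley rats of 10 to 12 weeks from the breeding colonies of 1 institute, fed standard chow without restriction and given no treatment, and they form a single group (n = 4). Liver RNA of each rat was hybridised to 1 Affymetrix array, a chip on which each gene is read by a set of short probes. A difference between animals therefore cannot be told apart from a difference between arrays, and whole liver holds other cell types beside hepatocytes. With 1 group no conditions were compared.

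The methionine cycle turns dietary methionine into S-adenosylmethionine, the cell's main methyl donor, and the liver is its chief site. Each methyl transfer leaves S-adenosylhomocysteine, which is split to homocysteine. Homocysteine is either methylated back to methionine or passed through transsulfuration to cysteine, the precursor of glutathione and taurine. Folate-bound one-carbon units, made largely from serine and glycine, feed the remethylation arm.

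Signals are deposited on a log2 scale, on which a difference of 1 is a doubling, and each of the 4 arrays had a median of 8.11. How bright a probe set is depends partly on its own probes, so levels of different genes are not ranked as amounts of transcript. A gene was called above background when its mean over the rats exceeded the 95th percentile of 28 probe sets of 21 brain, muscle, testis and eye genes, a log2 signal of 10.70. That level rests on Myh1, a skeletal muscle myosin with 4 of its 5 probe sets above 10, and without Myh1 the level was 8.23. At 10.70, 4.34% of all named genes were above background, and at 8.23, 51.8% were. Hepatocyte markers were bright, with albumin (Alb) at 15.06 ± 0.02 and transthyretin (Ttr) at 14.32 ± 0.02 (SD, n = 4). Of 3 bile duct markers, the keratins Krt7 and Krt19 had means of 7.83 and 7.64, below both levels, and Epcam had 8.24 ± 0.10, at the lower level. A probe set is called flat where its 4 values agreed within 0.001; 35.3% of named genes above 8.23 were flat, and their SD does not measure the animals.

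Of the 9 members, 6 were above the level of 10.70 and 9 above 8.23. The lowest member just inside the higher level was Bhmt at 11.08, and the nearest outside it were Cbs at 10.69 and Pemt at 10.68, both within their SDs of it. Shmt1 was lower, at 9.99.

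The core of the cycle was read by 3 probe sets. Mat1a, the adult liver enzyme that makes S-adenosylmethionine, had log2 signals of 12.54, 12.46, 12.50 and 12.72 in rats 1 to 4. Its mean was 12.55 ± 0.11 (SD, n = 4), with rat 4 at the top, 0.18 above the next rat. Gnmt, which methylates glycine and so disposes of surplus S-adenosylmethionine, had signals of 11.76, 11.33, 12.07 and 11.51. Its mean was 11.67 ± 0.32, and the highest rat exceeded the lowest by 0.74 log2 units, or 1.68-fold. Gnmt thus had the largest SD of the 9 members. Ahcy, which splits S-adenosylhomocysteine, had signals of 11.98, 11.69, 11.95 and 11.84. Its mean was 11.87 ± 0.13, with rats 1 and 3 close together and rat 2 below.

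The fate of homocysteine is set out over 3 of the enzymes. Bhmt, which remethylates it with betaine as the methyl source, had signals of 11.22, 10.79, 11.44 and 10.86. Its mean was 11.08 ± 0.31, with rats 1 and 3 high, rats 2 and 4 low, and a 1.57-fold range. Cbs, which joins homocysteine to serine in the first step of transsulfuration, had signals of 10.74, 10.59, 10.77 and 10.65. Its mean was 10.69 ± 0.08, and it had the smallest SD among the members that were not flat. The next enzyme, Cth, releases cysteine and had signals of 11.95, 11.29, 11.68 and 11.41. Its mean was 11.58 ± 0.29, with rat 1 highest and a 1.57-fold range. The consecutive enzymes of transsulfuration therefore had SDs of 0.08 and 0.29.

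The methyl acceptors and the folate enzyme complete the set. Pemt, which methylates phosphatidylethanolamine to phosphatidylcholine, had signals of 10.74, 10.55, 10.60 and 10.83. Its mean was 10.68 ± 0.13, with rats 1 and 4 above rats 2 and 3. Gamt, which methylates guanidinoacetate to creatine, read 12.06 on each array, and Shmt1, the cytosolic enzyme that moves a carbon from serine to folate, read 9.99 on each. Both were flat, so neither carries information on differences between rats.

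**Figure D1:**
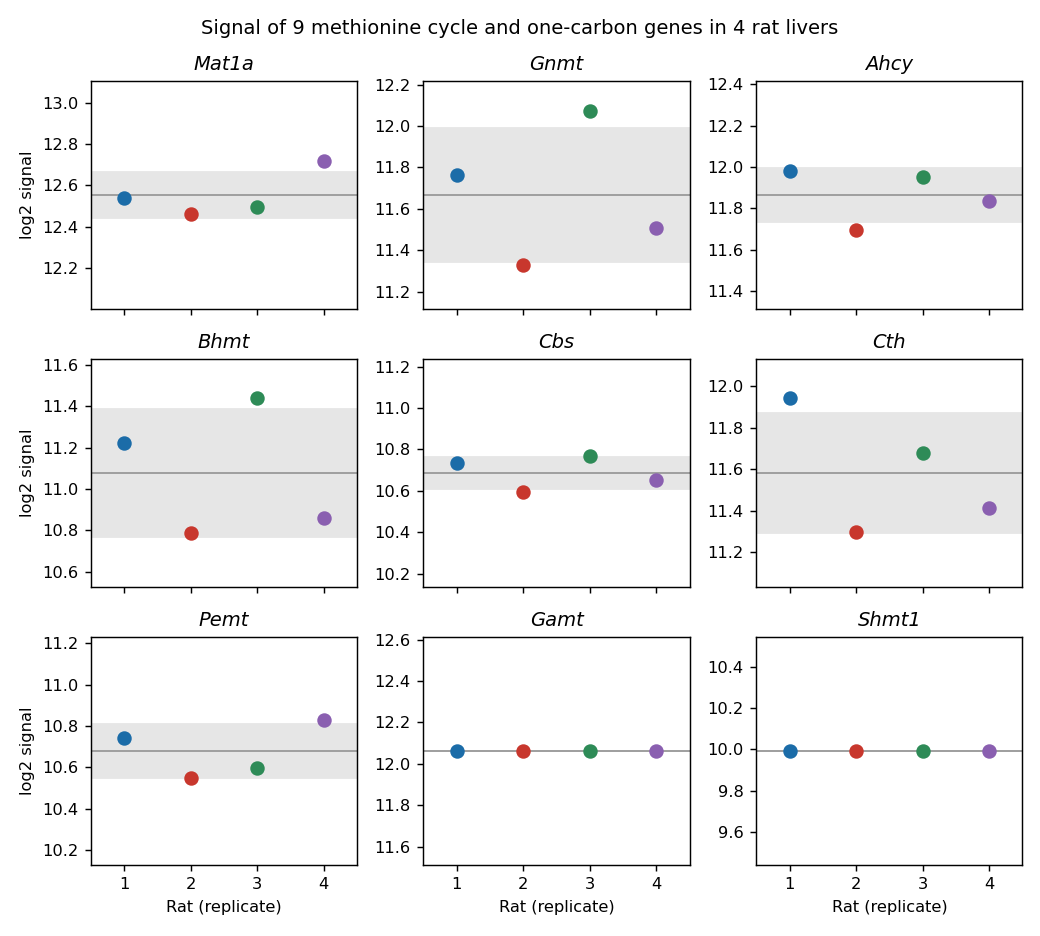
Log2 signal of the 9 members in each of 4 rats, 1 panel per gene with axes of equal span. Points are single rats, the line is the mean and the grey band is the mean ± 1 SD; Gnmt, Bhmt and Cth spread most, and Gamt and Shmt1 are flat.

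All 7 members that were not flat had their lowest deposited signal in rat 2, while 5 of 7 did when arrays were centred on bright probe sets and 6 of 7 after quantile normalization. Among all named genes that were not flat, 28.6% of 3485 above 8.23 and 32.9% of 392 above 10.70 were lowest in rat 2. The centred arrays gave 18% and 26%, and quantile normalization 24.2% and 23.7%. The exceptions were Pemt under both of these scalings and Mat1a after centring, which then had their lowest signal in rat 3. Their margins in the deposited values were small, 0.03 for Mat1a and 0.05 for Pemt between rat 2 and the next rat. The margin was 0.18 for Gnmt, 0.14 for Ahcy, 0.12 for Cth, 0.07 for Bhmt and 0.06 for Cbs, and these 5 were lowest in rat 2 under all 3 scalings.

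The size of the shift differed among members. The mean of the other 3 rats exceeded rat 2 by 0.45 log2 units for Gnmt, or 1.37-fold. It did so by 0.39 for Bhmt, 0.38 for Cth and 0.23 for Ahcy. For Pemt, Cbs and Mat1a the differences were 0.17, 0.12 and 0.12. Several sizes rested in part on 1 other rat. Rat 2 enters the mean itself, so leaving out another rat shrinks its deviation somewhat even where the gap to the others is unchanged. The deviation of rat 2 from the mean went from -0.34 to -0.20 for Gnmt and from -0.29 to -0.17 for Bhmt without rat 3. It went from -0.29 to -0.17 for Cth without rat 1, and without rat 4 from -0.09 to -0.04 for Mat1a and from -0.13 to -0.08 for Pemt. Measured as deviation from each gene's own mean, the 7 members had a median of -0.17 in rat 2, and of 0.09, 0.09 and -0.04 in rats 1, 3 and 4. Over the members above 10.70 that were not flat, the medians were -0.29 in rat 2 and -0.16 in rat 4. All 3485 genes above 8.23 that were not flat had medians between -0.004 and 0.011. Rat 2 was picked out after these values were seen, members are not replicates, and this pattern was not tested.

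The highest rat was not shared. From highest to lowest, Gnmt, Bhmt and Cbs ran through rats 3, 1, 4 and 2, an order found in 6.77% of the 3485 genes. Cth and Ahcy ran through rats 1, 3, 4 and 2 (5.54%). Mat1a and Pemt ran through rats 4, 1, 3 and 2 (3.07%). Quantile normalization changed the order for Pemt, and centring changed it for Cbs, Mat1a and Pemt. The closest pair of profiles was Mat1a and Pemt, whose deviations differed by a root mean square of 0.046 over the 4 rats. Gnmt and Bhmt differed by 0.051 and Ahcy and Cbs by 0.051, whereas Mat1a differed by 0.31 from Gnmt and also from Bhmt, the largest differences among the 7. Close behind, Gnmt and Pemt differed by 0.31 and Bhmt and Pemt by 0.30. The measure takes in the size of the deviations as well as their order. Cbs, with the same order of rats as Gnmt, differed from it by 0.21.

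**Figure D2:**
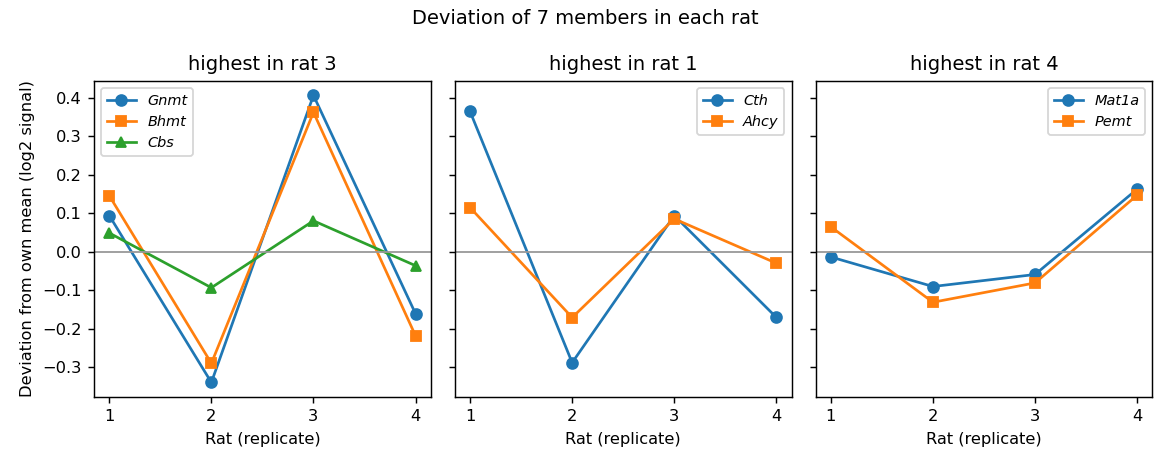
Deviation of each of the 7 members that were not flat from its own mean over 4 rats, in log2 signal, grouped by the rat in which the deposited signal was highest. Every line is lowest in rat 2 in the deposited values (Mat1a and Pemt not after centring, Pemt not after quantile normalization), and the curves for Gnmt and Bhmt nearly coincide.

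Promoters of the 3 members that differed most between rats are shown, as the 250 bases before the RefSeq transcription start (GRCr8 rat assembly). Each held TATAA within 43 bases of the start, at the positions given below. Capitals mark matches to TATAA (the core of a TATA box), CCAAT (the box bound by nuclear factor Y) and CACGTG (an E-box), searched on both strands; no match overlapped another.
Gnmt, GRCr8 chr9:21752032-21752281, plus strand: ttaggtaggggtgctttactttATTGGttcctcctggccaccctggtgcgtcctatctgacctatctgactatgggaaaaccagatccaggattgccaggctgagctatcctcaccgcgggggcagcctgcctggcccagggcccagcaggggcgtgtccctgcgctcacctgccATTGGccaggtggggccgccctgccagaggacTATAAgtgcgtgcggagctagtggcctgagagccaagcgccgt
Bhmt, GRCr8 chr2:26614430-26614679, minus strand: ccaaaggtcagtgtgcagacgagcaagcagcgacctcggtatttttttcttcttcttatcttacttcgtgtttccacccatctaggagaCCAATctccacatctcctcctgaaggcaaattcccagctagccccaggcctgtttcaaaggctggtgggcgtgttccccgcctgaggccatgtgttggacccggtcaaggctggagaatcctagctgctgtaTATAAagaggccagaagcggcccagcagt
Cth, GRCr8 chr2:249661067-249661316, minus strand: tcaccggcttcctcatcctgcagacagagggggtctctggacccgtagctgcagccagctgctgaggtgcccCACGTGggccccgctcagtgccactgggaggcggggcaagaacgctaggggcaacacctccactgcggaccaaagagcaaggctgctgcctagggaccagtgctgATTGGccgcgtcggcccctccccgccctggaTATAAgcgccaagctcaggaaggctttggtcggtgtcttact
TATAA lay 43 to 39 bases before the start in Gnmt, 29 to 25 in Bhmt and 42 to 38 in Cth, on the plus orientation of each gene. It was found in 3 of 9 member promoters and in 24% of 33469 promoters of the same length, and the 3 were those printed. CCAAT was found in 6 of 9 members, against 34% of all promoters. CACGTG was found in Cth and, as a pair of copies, in Shmt1, against 5.59% of all promoters. Another motif searched, AGAACA of glucocorticoid receptor sites, occurred in Mat1a alone among the members, against 17.5% of all promoters. The motifs were chosen with the signals known, and a match is a run of letters, not a bound site. Whether any of them bears on the spread between rats was not tested.

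Set beside other genes, the spread of the members covered a wide range. The median SD of the 9 members was 0.13, with or without the flat pair, against 0.056 in the 3485 genes above 8.23 and 0.086 in the 392 above 10.70, flat genes left out. Over the 6 members above 10.70, it was 0.21 with the flat Gamt and 0.29, the SD of Cth, without it. Gnmt had a larger SD than most, with 3.21% of the 3485 genes above it, and Bhmt (3.53%) and Cth (4.16%) were near it. Ahcy and Pemt were exceeded by 16.3% and 16.6%, Mat1a by 19.8% and Cbs by 32.3%. Among the brighter 392 genes the shares were 6.89% for Gnmt, 7.65% for Bhmt, 9.18% for Cth, 29.6% for Ahcy and 35.7% for Mat1a. Cbs and Pemt lay just below 10.70 and so outside that set, of which 53.6% and 30.1% had a larger SD. No gene in these comparisons had a replicate array, so the part of each SD that is measurement error was not tested.

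**Figure D3:**
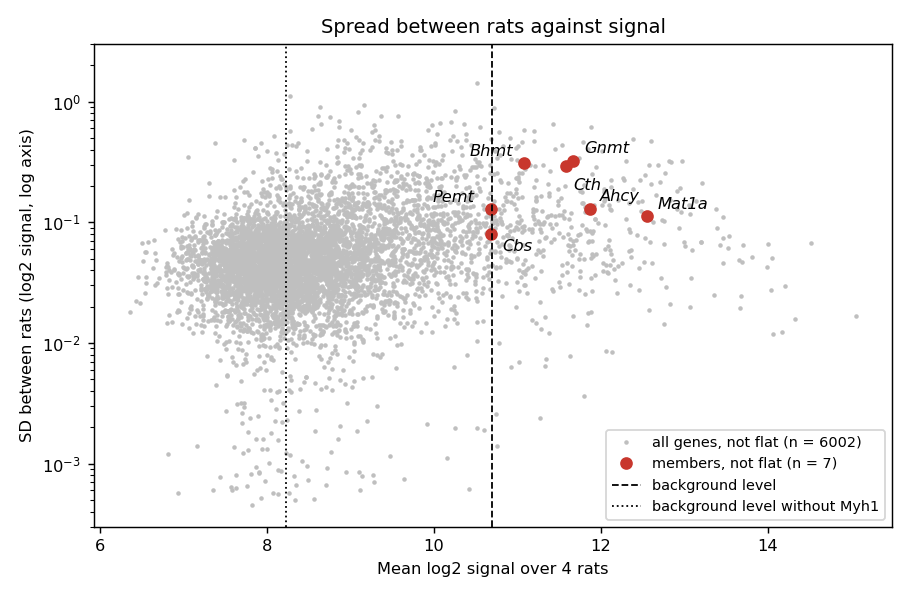
SD between 4 rats (log axis) against mean log2 signal for all named genes that were not flat (grey) and the 7 such members (red). Vertical lines mark the background level with Myh1 (10.70, dashed) and without it (8.23, dotted); Gnmt, Bhmt and Cth lie near the top of the cloud and Cbs within it.

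Gnmt, the member with the largest SD, was used to look for like profiles, measured by the root mean square difference of deviations over the 4 rats among 391 other genes above 10.70 that were not flat. The nearest was Sult1a1, a phenol sulfotransferase, at 11.98, 11.63, 12.31 and 11.84 in rats 1 to 4, with a difference of 0.047. Bhmt ranked second (0.051), followed by Hsd17b10, a mitochondrial dehydrogenase (0.056). Ass1, the argininosuccinate synthase of the urea cycle, came next at 13.02, 12.54, 13.19 and 12.60 (0.066), and Phyh, a peroxisomal hydroxylase of branched fatty acids, was the fifth (0.074). Ahcy ranked 35, Cth 51 and Mat1a 287. When the 3484 genes above 8.23 were searched, Papss2, which makes the sulfate donor used by sulfotransferases, was nearest at 10.60, 10.22, 10.95 and 10.39 (0.022). Likeness over 4 rats is a description only.

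Other genes of the pathway were taken from a list of 85, of which 66 had a probe set of their own. Of these, 7 were above 10.70 and 54 above 8.23, beside 4.34% and 51.8% of all named genes. Among the 46 above 8.23 that were not flat, 19 were lowest in rat 2 as deposited, 14 after quantile normalization and 12 after centring, where 17 were lowest in rat 3. The median deviation in rat 2 was -0.02 as deposited. As deposited, 11 were lowest in rat 4, 9 in rat 1 and 7 in rat 3. Among all genes above 8.23 that were not flat, 29.5%, 28.6%, 18.5% and 23.3% were lowest in rats 1 to 4. Of the 7 above 10.70, 5 were lowest in rat 2 as deposited and 4 under either other scaling. Among all 392 genes above 10.70 that were not flat, 32.9% were lowest there as deposited. The share was 23.7% after quantile normalization and 26% after centring. The orders of rats given for single genes below are those of the deposited values.

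Around S-adenosylmethionine, 1 of 7 genes was above 10.70 and 5 above 8.23. Mat2a, the form of the synthase used outside adult liver, had means of 8.15 and 7.98 at its 2 probe sets, below both levels, and its regulatory subunit Mat2b had 9.21 ± 0.04. Adk, adenosine kinase, removes the adenosine that Ahcy releases and was at 11.92, 11.71, 11.85 and 11.79. Its other probe set read 10.93, 10.74, 10.93 and 10.83, so rat 2 was lowest at both.

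In remethylation and choline oxidation 3 of the 4 genes measured were above 8.23, and at its brightest probe set none of the 4 was lowest in rat 2. Aldh7a1, which among other aldehydes oxidises betaine aldehyde, had signals of 11.90, 12.24, 12.38 and 11.96, with rats 2 and 3 high. Dmgdh, which demethylates dimethylglycine, and Sardh, which demethylates sarcosine, had means of 10.42 ± 0.07 and 9.98 ± 0.07 (brightest probe set). The other probe set of Sardh read 9.77, 9.68, 9.99 and 9.81 and was lowest in rat 2. Mtr, the folate-dependent methionine synthase, was at 8.19 ± 0.03, just below the lower level.

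Among folate carriers and enzymes, 2 of 15 genes were above 10.70 and 10 above 8.23. Ftcd, which feeds carbon from histidine breakdown into folate, had signals of 11.57, 11.36, 11.72 and 11.45, the same order of rats as Gnmt. Aldh1l1, which burns off formyl groups, had 11.65, 11.32, 11.49 and 11.51. Rat 2 was lowest for both. Shmt2, the mitochondrial partner of Shmt1, was at 10.37 ± 0.11 and was lowest in rat 4.

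Genes of serine and glycine metabolism had the largest spread among the roles, with a median SD of 0.26 over the 6 that were not flat, and 0 of 7 were above 10.70. The genes named here were chosen after their values were seen. Psat1 and Phgdh, enzymes of serine synthesis, had the same order of rats: Psat1 read 8.83, 8.26, 7.50 and 8.51, and Phgdh 9.16, 8.69, 8.20 and 8.85. Both were highest in rat 1 and lowest in rat 3, the rat in which Gnmt and Bhmt were highest. The values of both in rat 3 lay below 8.23. Gldc of the glycine cleavage system read 9.14, 9.79, 9.55 and 9.29, highest in rat 2, while its partner Gcsh read 10.53, 10.34, 10.57 and 10.52, lowest there.

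Downstream of Cth, 3 of 10 genes were above 10.70 and 10 above 8.23. Cdo1, which oxidises cysteine on the way to taurine, had signals of 12.78, 13.03, 12.84 and 13.02. Rats 2 and 4 were thus high for Cdo1 and low for Cth. Csad, the next enzyme to taurine, was at 11.13 ± 0.04, and Tst, a sulfurtransferase, at 11.56 ± 0.12. Gclm, the modifier subunit of the enzyme that starts glutathione synthesis, read 10.31, 9.68, 9.98 and 9.74, the same order of rats as Cth. Its catalytic partner Gclc was instead lowest in rat 4 at both probe sets. Ethe1, which oxidises persulfide in mitochondria, read 9.79, 9.62, 10.41 and 9.53. Gclm, Gclc and Ethe1 were also named after their values were seen.

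No gene of the last 3 roles was above 10.70, and those named were chosen after their values were seen. Of the other methyltransferases and creatine genes, 5 of 7 were above 8.23. Inmt, an indole methyltransferase, had the largest SD of the pathway list, with 8.66, 7.86, 9.67 and 8.84. It was lowest in rat 2 and highest in rat 3, as Gnmt was, but its value in rat 2 lay below 8.23. Gatm, which makes the guanidinoacetate that Gamt methylates, was at 7.73 ± 0.07, below both levels. Of the phosphatidylcholine genes 8 of 8 were above 8.23, and Pcyt2, of the ethanolamine branch that supplies the substrate of Pemt, was at 10.64 ± 0.04. Of the polyamine and methionine salvage genes 7 of 8 were above 8.23, among them Adi1 at 9.98 ± 0.02.

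**Figure D4:**
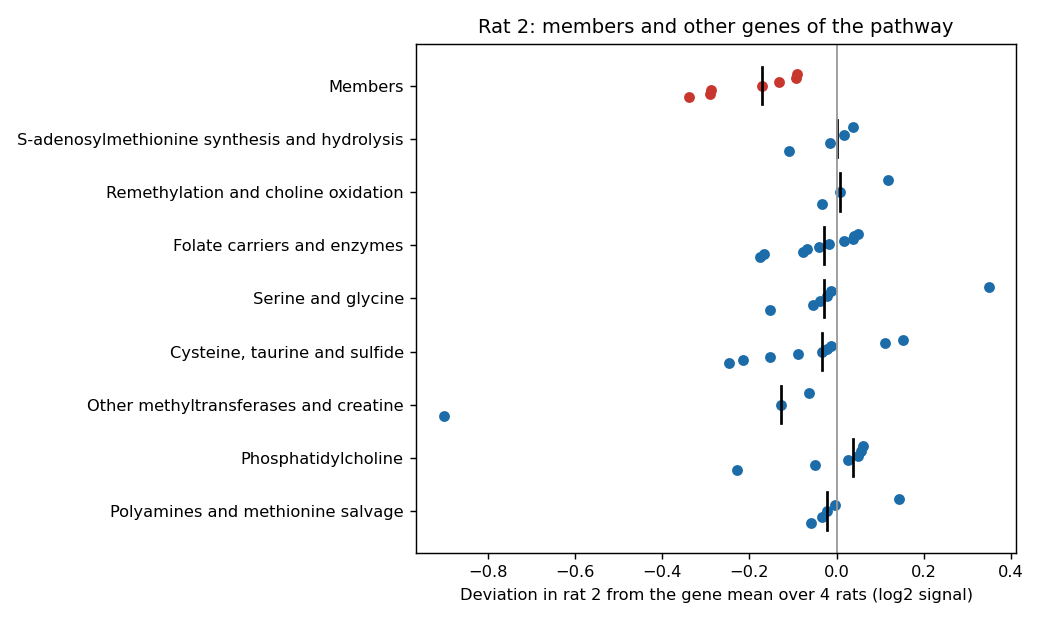
Deviation of each gene in rat 2 from its own mean over 4 rats (log2 signal), for the 7 members that were not flat and for the 46 pathway genes above 8.23 that were not flat, by role. Points are genes and black bars medians; the members lie between -0.34 and -0.09, and the pathway genes lie on both sides of 0.

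Some marker lists also differed in rat 2, and their part in the members' values was not tested. As deposited, 28.6% of all named genes above 8.23 and 32.9% of those above 10.70 were lowest in rat 2, flat genes left out. For rat 1 the shares were 29.5% and 34.2%. Of the 5 pericentral hepatocyte markers, 4 were lowest in rat 2 (3 after quantile normalization). Among them were Cyp1a2 at 12.26 against 12.72 to 12.96 and Cyp2e1 at 13.28 against 13.40 to 13.50. Glul was lowest in rat 2 by 0.03 at its brightest probe set and also at another. Its remaining probe set, like Oat, was lowest in rat 1. Periportal markers were lowest in rat 2 in 2 of 6 that were not flat (Ass1 and Cps1, at 12.54 and 12.41), and the hepatocyte list in 0 of 6 (1 of each after quantile normalization). Cps1 was lowest there by only 0.01, and its other probe set was flat at 12.13. Kupffer cell and macrophage markers, above 8.23 for 5 of 5 measured, had their highest summed linear signal in rat 2, at 5388 against 4346 to 4935. The 7 stellate cell markers, 3 of them above 8.23, summed to 4163 in rat 2, 4246 in rat 4, 3473 in rat 1 and 2675 in rat 3. The 4 blood markers, 2 of them above 8.23, summed to 3197 in rat 2, within the range of 2784 to 4628. Such sums are weighted to the brighter genes of each list, of which the brightest were Clec4f (mean 10.51), Col3a1 (mean 10.83) and Hbb (mean 11.46). Of the Kupffer cell and macrophage markers, Clec4f, C1qa and C1qb were highest in rat 2. Cd68 was highest in rat 3, and Csf1r was flat. In whole liver, fewer cells of a type and less RNA per cell cannot be told apart. Of the 8 fasting and glucocorticoid response genes that were not flat, 6 were lowest in rat 1 as deposited (5 after quantile normalization, 4 after centring) and 1 in rat 2, with Tat at 9.52, 10.53, 11.10 and 10.30 in rats 1 to 4. The excess of signal at the 3' over the 5' end of Gapdh and of beta-actin was neither highest nor lowest in rat 2. In rat 1 it was highest for beta-actin (0.85 against 0.54 to 0.66) and lowest for Gapdh (0.48 against 0.52 to 0.54). Hybridisation spike-in controls had median deviations of -0.07, -0.03, 0.08 and 0.03 in rats 1 to 4. Whether these array differences bear on the members was not tested.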

How the data were processed

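Liver RNA of 4 control rats was measured on 1 array each, RAE230A per the scanner settings and RAE230-2 per the labels' protocol. The authors deposited a log2 signal for each of 15923 probe sets. The submitters' processing notes name GCRMA, RMA, affy 1.12.2 and R 2.4.1; which method gave the deposited log2 values is not given in the sources used here. All arrays shared 1 chip lot, 1 scan day and 1 fluidics station, so no batch could be fitted. Rats 1 to 4 ran on modules 1 to 4 of that station, so module and rat cannot be told apart.

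Of the probe sets, 12789 carried 1 symbol, 312 several and 2822 none; 12754 of the first were matched by gene number to the RefSeq table of GRCr8. A gene was represented by its brightest probe set. Means, SDs (n = 4), deviations and ranks were computed in Python 3.11.15 with numpy 2.4.6 and pandas 2.3.3, tested on simulated data. The number of arrays limits precision.

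Named genes were all members, the 3 brightest and the 3 most variable above background in each pathway role, the 5 profiles nearest to the most variable member, and the 2 brightest of each marker list, of which those that bear on the members are printed. Any other gene named, among them Mat2a, Mtr, Gatm, Krt19, Cps1 and Papss2, was chosen after its values were seen. The members and lists were chosen with earlier results of these data known. Alternatives covered the background level, probe set choice, scaling, flat probe sets, the measure of spread and each rat left out. Promoters come from RefSeq (GRCr8), where 9 of 9 members matched by symbol.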

Additional observations from a re-analysis of the deposited data

Results flagged for a closer look

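Among 53 sets of 4 values (the members, and the pathway genes above a log2 signal of 8.23, flat ones left out), a gap wide for the range of the 4 values singled out a rat in 1, and about 5% of sets would show one by chance. Pisd, which makes phosphatidylethanolamine, had a log2 signal of 8.566 in rat 4 against 8.644 to 8.658 in the others. Pisd is a gene of the pathway list and not one of the 9 members.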

How the results depend on the processing

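The count of 6 members above background ranged from 5 (98th percentile) to 9 (without Myh1, or above the brightest of 27 Bacillus control probe sets), and from 6 to 8 with 1 rat left out, 8 without rat 2. The count of 7 pathway genes became 14 at the 90th percentile, 54 without Myh1 and 61 against the Bacillus controls, and was 7 without any 1 rat. The median SD of members, 0.13, was 0.21 over those above background and 0.28 as a range, and lay between 0.10 and 0.14 with 1 rat left out. In the other 5 alternatives it stayed within 1.5 times. The median deviation in rat 2 kept its sign in all 6 alternatives (-0.29 to -0.13) and without each other rat (-0.18 to -0.13). Only the changes of scaling could have altered that sign, since all 7 members that were not flat were lowest in rat 2 as deposited. The other alternatives and the rats left out therefore bear on its size alone. With 1 rat left out, the medians ranged from 0.02 to 0.14 in rat 1, 0.03 to 0.12 in rat 3 and -0.09 to -0.01 in rat 4. With all 4 rats kept, 71 of 73 single member values under the alternatives moved by less than 1 SD. The exceptions were the means of the flat Gamt and Shmt1. Most of the 73 could not move, so this count does not measure robustness. Each member had 1 probe set, so probe set choice and leaving out dim members repeated the same values. Centring cannot change a mean over the 4 rats. A fit with day or lot as a block was not run, since there was 1 of each. Agreement between probe sets of a member was not examined, since each had 1. No paired analysis was possible because there is 1 group.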
